A study of Homo sapiens with 16 samples.

Results

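The response of human multiple myeloma cells to a short hairpin RNA (shRNA) against CD86 was measured by mRNA sequencing in 4 backgrounds. The backgrounds were the established myeloma lines MM.1s, RPMI8226 and KMS18, none with an overexpressed gene, and a form of RPMI8226 with overexpressed Mcl1, a protein that blocks apoptosis (RPMI8226-Mcl1). Each was transfected with the CD86 shRNA, with an shRNA against Gapdh as one control, or with the empty vector pLK0.1 (Vec) as the other. Of the 16 libraries of the series, 12 entered the comparison: 4 with CD86 shRNA, 4 with Gapdh shRNA and 4 with Vec, with 1 library for each combination. These 12 libraries were chosen by their labels alone. The remaining libraries carried an shRNA against CD28 in the same backgrounds. They were used only in a ranking of short sequences and in an alternative fit. The backgrounds served as the replicates, and RPMI8226-Mcl1 is a derivative of RPMI8226 and not an independent line. No source used here gives the hairpin sequences, how many hairpins were aimed at each target or the time from transfection to harvest. P-values for CD86 shRNA against the controls therefore measure only the spread of the response between these 4 backgrounds, mixed with differences between the controls.

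CD86 is a ligand of the costimulatory receptor CD28, best known on antigen-presenting cells that engage T cells, and myeloma cells can carry both molecules on their surface. Myeloma arises from plasma cells, which secrete antibody and therefore hold a large endoplasmic reticulum (ER). XBP1, ATF6 and ATF4 are transcription factors of the unfolded protein response of the ER. A short hairpin RNA is cut by Dicer to a small guide RNA, and guide RNAs in general can also lower messages whose 3′ untranslated region (UTR) pairs with a few bases near the guide's start, called the seed.

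Reads in genes numbered 4509899 to 5900955 per library, which was 80.8% to 84.4% of the library's total, and the 4 CD86 shRNA libraries (4509899 to 5639781) overlapped the 8 controls (4676493 to 5900955). Myeloma markers were present in every library, with a summed level of 631 to 1272 FPKM under CD86 shRNA and 849 to 1888 FPKM in the controls. FPKM is the number of reads scaled to exon length and library size. Of 7 T cell markers in the table, CD3D, CD3G and LCK were at 0 in all 12 libraries, and the summed level of the list was 0.940 to 2.05 FPKM under CD86 shRNA and 0.314 to 2.38 FPKM in the controls. The 7 myeloid markers summed to at most 3.49 FPKM and the 6 stromal markers to at most 0.841 FPKM in any library. GAPDH, used only to check the labels, stood under Gapdh shRNA at 53% of Vec for MM.1s, 34.3% for RPMI8226, 10.7% for KMS18 and 21.3% for RPMI8226-Mcl1. MCL1 itself measured 127 FPKM in the Vec library of RPMI8226-Mcl1 and 51.2 FPKM in that of RPMI8226.

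CD86 fell under its shRNA but was not lost. In MM.1s it measured 3.18 FPKM with Vec, 6.46 with Gapdh shRNA and 1.40 with CD86 shRNA. In RPMI8226 the 3 values were 6.92, 6.51 and 5.28 FPKM, in the same order. KMS18 gave 2.49, 3.45 and 1.1 FPKM, and RPMI8226-Mcl1 gave 5.80, 5.46 and 2.86 FPKM. The CD86 shRNA library was thus the lowest in each background, with the smallest change in RPMI8226, where 78.6% of the control level remained against 29.1% in MM.1s, 37.1% in KMS18 and 50.9% in RPMI8226-Mcl1. On average 48.9% ± 21.7 (SD, n = 4 backgrounds) of the control level remained. The log2 change in (FPKM + 1) was -0.80 (SE 0.165), with an adjusted p of 0.0152 in limma's moderated test over all genes with Benjamini-Hochberg adjustment. An exact two-sided permutation over the 81 arrangements of labels within backgrounds gave p = 0.0123, the smallest it can give. CD86 was a lowly expressed gene here, covered by 18 to 145 reads per library. Its limma call was lost without KMS18 (adjusted p = 0.0757), without RPMI8226-Mcl1 (0.0840) and against Vec alone (-0.67, adjusted p = 0.0808), and it held against Gapdh shRNA alone (-0.93, adjusted p = 0.0189).

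The receptor CD28 was far more abundant than its ligand per unit of length, at 45.8 to 78.5 FPKM, and it did not pass the test (log2 change -0.07, adjusted p = 0.597). CD80, the other ligand of CD28, reached at most 0.251 FPKM and 4 reads, and the inhibitory receptor CTLA4 at most 0.485 FPKM and 6 reads, so that neither could be compared at this depth. Of the 7 tested members of the CD28 and B7 family, CD86 was the 1 that fell (14.3%, against 4.66% of all genes) and none rose.

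Of the 11312 genes whose mean over the 12 libraries reached 1 FPKM, 858 (7.58%) passed an adjusted p of 0.05 against both controls. Of these, 527 (4.66% of the genes tested) fell and 331 (2.93%) rose. The split was not the same in every fit. With voom on the reads recovered from the FPKM values, which changes the scaling, the offset and the weights together, 731 fell and 823 rose, and with FPKM rescaled by the median of ratios 585 fell and 231 rose. The falls were the larger changes, with 166 called genes at or below -0.5 on the log2 scale and 42 at or above 0.5. The extremes were short RNA entries, SNORD34 of 66 bases (-1.86) and SNORD78 of 54 bases (1.20), singled out after their values were seen. Of the 527 genes that fell, 465 lay below both controls in all 4 backgrounds, a pattern shown by 6.56% of all genes tested. Of the 331 that rose, 299 lay above both controls in all 4 backgrounds, shown by 7.43% of all genes. The calls were made from the same values, so these counts describe the called genes and add no separate support. A background term was used because deviations within a background were correlated (r 0.896 to 0.953 across genes, against at most 0.692 between backgrounds). Without that term 2 genes passed. Without RPMI8226-Mcl1 266 genes passed, without KMS18 324, without RPMI8226 425 and without MM.1s 501, while 177 genes (158 lower, 19 higher) passed in each of these fits.

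**Figure D1:**
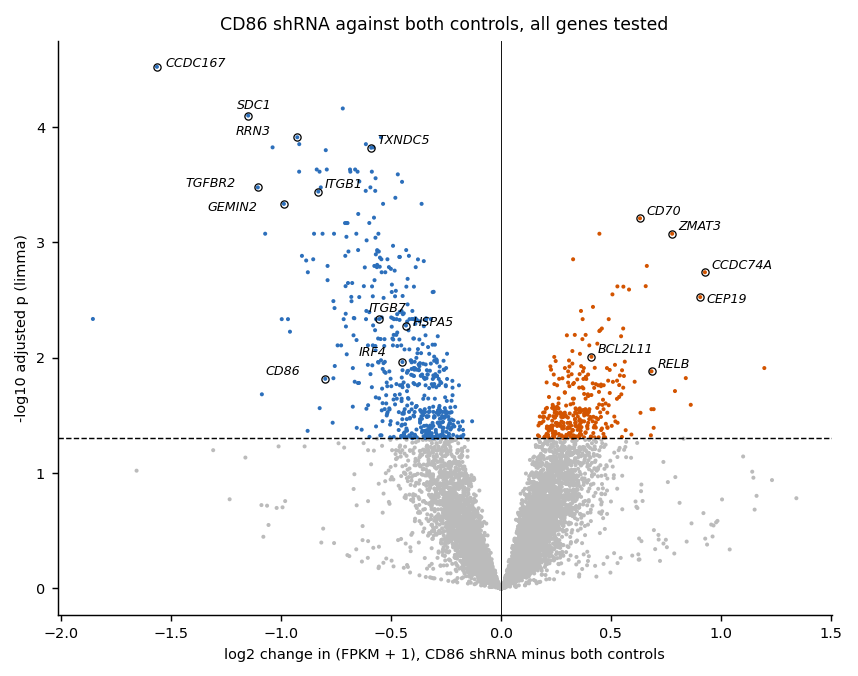
The log2 change in (FPKM + 1) under CD86 shRNA against both controls is plotted on the x axis and -log10 of limma's adjusted p on the y axis for all 11312 genes tested. Blue points are the 527 genes that fell, orange points the 331 that rose, the dashed line is an adjusted p of 0.05, and the falls reach further from 0 than the rises.

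The controls were also used one at a time. Against Vec 328 genes (2.9%) passed, 253 lower (2.24%) and 75 higher (0.663%). Against Gapdh shRNA 574 genes (5.07%) passed, 355 lower (3.14%) and 219 higher (1.94%). The comparisons share the CD86 shRNA libraries, and 246 genes passed in both. Between the controls themselves, Gapdh shRNA against Vec, limma called 0 genes with GAPDH left out, with 688 at an unadjusted p under 0.05 and a smallest adjusted p of 0.104.

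The largest fall of any gene with at least 300 bases of exon was in CCDC167, a small coiled-coil protein. It measured 28.7 to 53.6 FPKM in the 8 controls and 9.93 FPKM (MM.1s), 14.1 (RPMI8226), 15.0 (KMS18) and 10.2 (RPMI8226-Mcl1) under CD86 shRNA. All 4 CD86 shRNA libraries lay below all 8 controls, and 32.2% ± 5.40 (SD, n = 4) of the control level remained (log2 change -1.57, SE 0.0985, adjusted p = 3e-05, limma). SDC1, which encodes the plasma cell surface proteoglycan syndecan-1 (CD138), followed with 69.9, 35.8, 59.7 and 39.0 FPKM in the same order of backgrounds. Its controls were 166 and 178 FPKM in MM.1s, 65.5 and 68.7 in RPMI8226, 141 and 175 in KMS18 and 74.3 and 89.6 in RPMI8226-Mcl1, for Vec and Gapdh shRNA. The groups overlapped only across backgrounds and not within any of them, and 44.9% ± 7.06 (SD, n = 4) of the SDC1 level remained (log2 change -1.15, adjusted p = 7.95e-05, limma).

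TGFBR2, the type II receptor of TGF-beta, retained 39.8% ± 10.1 of its control level (log2 change -1.11, adjusted p = 0.000333, limma), and its ligand gene TGFB1 fell as well (-0.70, adjusted p = 0.00225). DUSP5, a nuclear phosphatase of ERK, retained 43.9% ± 3.10, and the signalling adaptor SH2D3C 42.7% ± 5.24. GEMIN2, a core subunit of the SMN complex that loads Sm proteins on spliceosomal RNAs, retained 44.2% ± 7.57 (log2 change -0.99, adjusted p = 0.000463, limma). It was the 1 of 9 tested SMN complex members that passed (11.1% lower, against 4.66% of all genes). RRN3, which brings RNA polymerase I to ribosomal DNA, retained 50.9% ± 8.14. The cation channel TMEM38A, the replication-linked co-chaperone DNAJC9, the zinc transporter SLC39A6 and the membrane protein gene SERINC1 all fell by 0.91 or more on the log2 scale. The named genes from TGFBR2 to SERINC1 passed in every fit without 1 background or 1 control library, and each lay below both controls in all 4 backgrounds. The naming rule required this position of the largest falls, SDC1 and KLF2 included, and the opposite of the largest rises. It is therefore not a separate result.

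The transcription factor KLF2, which in lymphocytes is under FOXO control, measured 1.94 FPKM in RPMI8226 under CD86 shRNA against 6.43 with Vec and 6.40 with Gapdh shRNA. Its controls in the other backgrounds ran from 7.38 to 30.0 FPKM and the CD86 shRNA libraries from 4.40 to 10.7 FPKM, with the CD86 shRNA library the lowest each time (log2 change -0.96, adjusted p = 0.00594, limma). KLF2 and the rising BCL2L11 were the 2 of 19 tested FOXO targets that passed, with opposite signs. Each made 5.26% of the list, against 4.66% of all genes lower and 2.93% higher. GPRC5D, an orphan receptor of plasma cells, fell from 37.9 and 58.5 to 10.7 FPKM in MM.1s and from 19.8 and 24.2 to 6.72 FPKM in KMS18, and was at or below 1.07 FPKM in all 6 libraries of RPMI8226 and RPMI8226-Mcl1. Its call was lost without MM.1s (adjusted p = 0.0706) and without KMS18 (0.115).

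**Figure D2:**
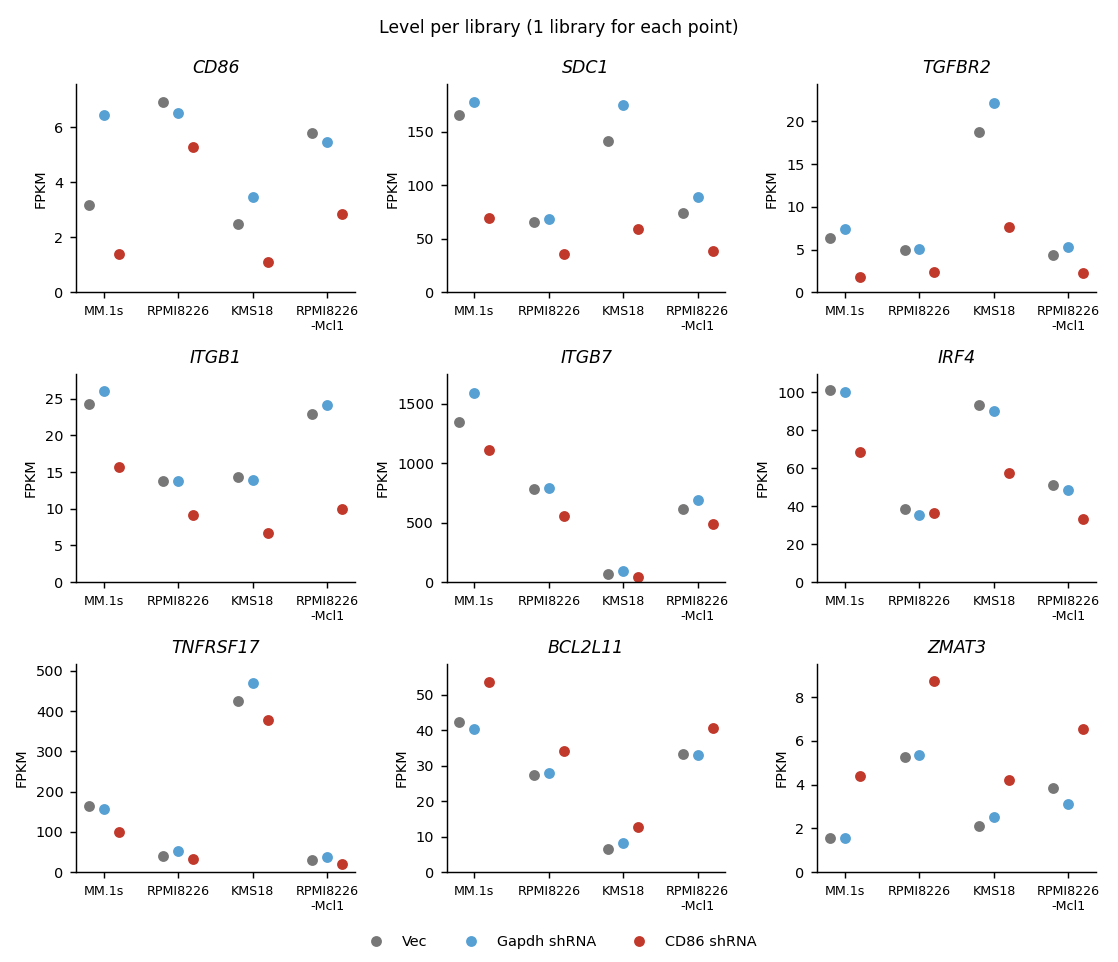
FPKM of 9 genes is plotted for each of the 12 libraries, with the 4 backgrounds on the x axis, grey for Vec, blue for Gapdh shRNA and red for CD86 shRNA, 1 point per library and a linear axis from 0. SDC1, TGFBR2, ITGB1, ITGB7 and TNFRSF17 lie lowest with CD86 shRNA in each background, IRF4 lies between its controls in RPMI8226, and BCL2L11 and ZMAT3 lie highest with CD86 shRNA in each background.

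Of 18 tested integrin genes and partners, 2 fell and 0 rose (11.1% lower, against 4.66% of all genes), with a median log2 change of -0.09 against 0.03 for all genes tested. ITGB1, the beta chain shared by the collagen, laminin and fibronectin receptors, fell to 15.7 FPKM in MM.1s (24.3 and 26.0 in Vec and Gapdh shRNA), 9.11 in RPMI8226 (13.7 and 13.8), 6.74 in KMS18 (14.4 and 13.9) and 9.96 in RPMI8226-Mcl1 (22.9 and 24.1). The CD86 shRNA library was below both controls each time, and the log2 change was -0.83 (SE 0.0897, adjusted p = 0.000362, limma). The ITGB7 gene, for the beta chain that pairs with alpha 4 and alpha E, is strongly expressed in MM.1s, where it measured 1348 and 1591 FPKM in the controls and 1115 FPKM under CD86 shRNA. In KMS18 the same values were 73.2, 96.6 and 44.9 FPKM, and the fall over the 4 backgrounds was -0.55 (adjusted p = 0.00461, limma). Of 16 other adhesion molecules CD44 (-0.33, adjusted p = 0.0455) and ALCAM (-0.45, adjusted p = 0.0489) were called (12.5% lower, against 4.66% of all genes). These calls were lost when any single control library was left out. The adjusted p of CD44 reached 0.196 without MM.1s and that of ALCAM 0.229 without KMS18.

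Plasma cell identity genes fell more often than genes at large. Of 20 tested members 8 fell and 0 rose, against 4.66% and 2.93% of all genes, and the median log2 change was -0.25. Without RPMI8226-Mcl1 5 fell, and without MM.1s or without KMS18 6. TNFRSF17, the BCMA receptor for the survival factors APRIL and BAFF, measured 99.1 FPKM under CD86 shRNA in MM.1s (163 and 156 in the controls), 31.2 in RPMI8226 (40.5 and 52.2), 377 in KMS18 (426 and 471) and 19.3 in RPMI8226-Mcl1 (28.9 and 38.5). It was lowest with CD86 shRNA in all 4 backgrounds, with a log2 change of -0.56 (adjusted p = 0.00681, limma). MZB1, an ER cofactor of antibody assembly, retained 71.7% ± 5.33 and FKBP11, an ER prolyl isomerase, 66.6% ± 4.10. IRF4, on which myeloma cells depend for survival, fell in MM.1s, KMS18 and RPMI8226-Mcl1 (68.4%, 62.5% and 67.1% of the controls) but measured 36.3 FPKM in RPMI8226 between controls of 38.7 and 35.2. Its log2 change was -0.45 (adjusted p = 0.0109, limma), lost without MM.1s (0.0577), KMS18 (0.0743) or RPMI8226-Mcl1 (0.0823), and the difference between backgrounds did not pass for IRF4. XBP1 fell slightly (-0.22, adjusted p = 0.0158, lost without MM.1s at 0.0553 and RPMI8226-Mcl1 at 0.106). PRDM1, which encodes the plasma cell regulator BLIMP-1, did not pass (-0.30, adjusted p = 0.142), and the marker genes SLAMF7 (-0.48, 0.0857) and CD38 (-0.24, 0.231), singled out after their values were seen, did not pass either. JCHAIN, the joining chain of polymeric antibody, had a log2 change of 0.05 (adjusted p = 0.668). In bulk RNA of a whole culture, fewer cells of a kind and less RNA per cell cannot be told apart.

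ER chaperones and folding enzymes had the largest share of called members of any list examined. Of 27 tested genes 20 fell (74.1%, against 4.66% of all genes) and 0 rose (against 2.93%). In the list 26 had a log2 change below 0, and 21 lay below both controls in all 4 backgrounds, shown by 6.56% of all genes. The median log2 change of the list was -0.38, against 0.03 for all genes tested. The median was -0.47 for MM.1s alone, -0.24 for RPMI8226, -0.46 for KMS18 and -0.33 for RPMI8226-Mcl1, and between Gapdh shRNA and Vec it was 0.10. Against Vec alone 12 of the 27 fell and against Gapdh shRNA alone 20. Between 15 and 19 members fell when a background was left out, with RPMI8226-Mcl1 giving the lowest number.

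TXNDC5, a disulfide isomerase, responded to a like extent in every background: it measured 29.1 FPKM under CD86 shRNA in MM.1s (46.1 and 45.9 in Vec and Gapdh shRNA), 18.0 in RPMI8226 (26.4 and 28.5), 12.4 in KMS18 (19.4 and 17.7) and 15.1 in RPMI8226-Mcl1 (23.6 and 22.7). The 4 backgrounds each retained close to 65.1% ± 1.45 of the control level (log2 change -0.59, SE 0.0529, adjusted p = 0.000151, limma). DNAJC3, a co-chaperone of BiP and inhibitor of the kinase PERK, had the largest fall of the list (-0.68, adjusted p = 0.00323). The ER stress-responsive secreted factor MANF (-0.58) and MYDGF, an ER-resident growth factor (-0.56), passed too. HSPA5, which encodes BiP, the central ER chaperone of the HSP70 family, was singled out after its values were seen. It measured 127 FPKM in MM.1s (201 and 205), 302 in RPMI8226 (338 and 359), 207 in KMS18 (271 and 323) and 239 in RPMI8226-Mcl1 (286 and 317), the lowest value in each background (log2 change -0.43, adjusted p = 0.00525, limma). DNAJB9, an ER cochaperone induced by XBP1, had a log2 change of 0.03 (adjusted p = 0.884), with MM.1s at 0.32 and the other backgrounds between -0.13 and -0.02.

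**Figure D3:**
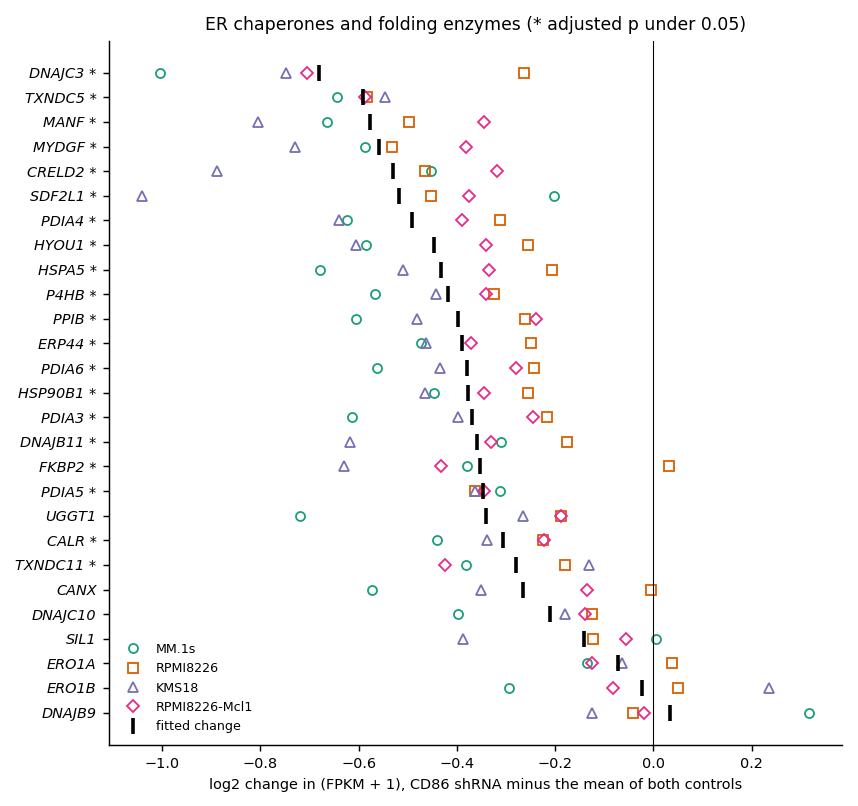
The log2 change in (FPKM + 1) under CD86 shRNA is plotted for the 27 tested ER chaperones and folding enzymes, with 1 symbol for each background and a black tick for the fitted change. The 20 genes marked with an asterisk fell with an adjusted p under 0.05, and their symbols lie left of 0 except FKBP2 in RPMI8226.

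Several of these genes carry the ER stress response element, bound by ATF6 together with NF-Y, in the RefSeq promoter window (GRCh38.p14, 250 bases before to 50 after the gene start). The full element, CCAAT followed after 9 bases of any kind by CCACG, searched on both strands, was found in 22 of 27305 promoters (0.0806%). Promoters were matched for 9005 of the genes tested, and 14 of those held the element. It was in 8 of 441 genes that fell (1.81%), in 0 of 263 that rose and in 6 of 8301 that did neither (0.0723%). Of the 26 ER chaperones with a promoter 6 held it: HSPA5, HSP90B1 (at 2 sites), CALR and CRELD2, which fell, and CANX (adjusted p = 0.0596) and ERO1B (0.941), which did not pass. The others that fell were XBP1, SERP1, TRIM5 and TMEM120A, whose calls were each lost without at least 1 background, with adjusted p-values up to 0.106, 0.161, 0.109 and 0.0996. CRELD2 shares its site with ALG12 (adjusted p = 0.522) and SERP1 with EIF2A (0.916), which start on the opposite strand. Apart from XBP1 these genes were singled out after their values were seen. The following windows show the element in 3 chaperone genes that fell in every fit without 1 background and in XBP1, read on the strand that gives CCAAT first, with the fixed bases in capitals. A match is a description of the letters and does not show that a factor was bound.
HSPA5 (chr9:125241386-125241414, minus strand): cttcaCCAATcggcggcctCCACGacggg
HSP90B1 (chr12:103930211-103930239, plus strand): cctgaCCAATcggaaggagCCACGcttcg
CALR (chr19:12938379-12938407, minus strand): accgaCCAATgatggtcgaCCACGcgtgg
XBP1 (chr22:28800598-28800626, minus strand): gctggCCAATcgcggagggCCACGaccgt

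Other lists of the secretory pathway also held more falls than rises, with list medians closer to 0. Of 31 tested genes for protein translocation and N-glycosylation 13 fell (41.9%, against 4.66% of all genes). In that list 1 rose (3.23%, against 2.93%) and 17 did not pass (median -0.22). Of 26 genes for COPII and COPI vesicle transport 12 fell (46.2%), 0 rose and 14 did not pass (median -0.23). SSR1, a subunit of the translocon-associated complex, fell by 0.71 on the log2 scale (adjusted p = 0.00131, limma), SSR3 of the same complex by 0.46 and SRP68 of the signal recognition particle by 0.46. SRP9, of the Alu domain of the same particle, was the member that rose (0.26, adjusted p = 0.0173, lost without MM.1s, KMS18 or RPMI8226-Mcl1, at 0.0653, 0.0958 and 0.0641). The COPII coat genes SEC23B and SEC24D each fell by 0.56 (adjusted p = 0.00117 and 0.0012), and the cargo receptor LMAN2 by 0.32. Without RPMI8226-Mcl1 6 of the translocation and glycosylation genes and 4 of the coat genes fell, and without KMS18 the numbers were also 6 and 4, while the medians lay between -0.25 and -0.18 in every fit without 1 background. With RPMI8226 and RPMI8226-Mcl1 averaged, an alternative chosen after seeing the data, 8 and 5 fell.

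Of 24 tested regulators of ER stress and ER-associated degradation 11 fell (45.8%, against 4.66% of all genes) and 0 rose, with a median of -0.24. WFS1, an ER membrane protein of calcium balance, retained 49.4% ± 10.5 (log2 change -0.89, adjusted p = 0.00143, limma). SVIP, an inhibitor of ER-associated degradation that binds p97, retained 57.3% ± 7.54, and DERL3, a component of the retrotranslocation machinery, 67.0% ± 16.7. The stress sensor genes ATF6 (-0.40, adjusted p = 0.0144) and ERN1, which encodes IRE1 (-0.36, 0.0290), were singled out after their values were seen and were called, and each call was lost without MM.1s, KMS18 or RPMI8226-Mcl1, with adjusted p-values of 0.0636 to 0.143. Without RPMI8226-Mcl1 4 of the 24 fell, without KMS18 5 and without MM.1s 6, and with the RPMI8226 pair averaged 7.

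The amino acid response controlled by ATF4 had the lowest median of any pathway list, -0.43. Of its 27 tested members 9 were lower (33.3%, against 4.66% of all genes) and 0 higher. The median was -0.79 in KMS18, -0.39 in RPMI8226-Mcl1, -0.22 in MM.1s and -0.13 in RPMI8226, and without KMS18 it was -0.25 with 5 genes lower. Without RPMI8226-Mcl1 4 of its genes fell, and with voom on recovered reads 16. SLC7A5, the light chain of the LAT1 leucine transporter, measured 119 FPKM under CD86 shRNA in KMS18 (276 and 312 in the controls) and 63.5 FPKM in RPMI8226 (83.4 and 79.9). CHAC1, which degrades glutathione and is an ATF4 target, retained 37.3% ± 14.6 (log2 change -0.97, adjusted p = 0.00462, limma). The serine synthesis enzymes PHGDH (-0.60, adjusted p = 0.00402) and PSPH (-0.57, 0.00091), the latter singled out after its values were seen, also fell. CEBPB was called (-0.76, adjusted p = 0.0118) and lost without RPMI8226 (0.0665), KMS18 (0.0702) or RPMI8226-Mcl1 (0.0529).

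Of 25 tested cholesterol synthesis genes 3 fell and 0 rose (12% lower, against 4.66% of all genes), with a median of -0.13. SREBF1, which encodes the lipid regulator SREBP1, retained 64.0% ± 9.83 (log2 change -0.62, adjusted p = 0.000357, limma), and the sterol oxidase gene MSMO1 62.6% ± 3.49. Of 29 tested autophagy genes 3 fell and 0 rose (10.3% lower), while 21 had a change above 0 and the median was 0.08. MAP1LC3B, the LC3 protein of autophagosome membranes, fell by 0.84 (adjusted p = 0.000233), and GABARAP, of the same family, by 0.31 (0.0077, lost without RPMI8226-Mcl1 at 0.0662). MAP1LC3B has a near-identical copy, MAP1LC3B2 (-0.73, adjusted p = 0.0078), and reads may be split between them.

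Among called genes the median log2 change was 0.34 for the rises and -0.41 for the falls. ZMAT3, a p53 target that encodes a zinc finger RNA-binding protein, measured 4.37 FPKM under CD86 shRNA in MM.1s (1.54 in both controls), 8.71 in RPMI8226 (5.26 and 5.36), 4.20 in KMS18 (2.09 and 2.52) and 6.52 in RPMI8226-Mcl1 (3.84 and 3.10). It was highest with CD86 shRNA in all 4 backgrounds (log2 change 0.78, SE 0.0948, adjusted p = 0.00084, limma). CD70, a ligand of the TNF family, rose to 158% ± 14.5 of its controls (0.63, adjusted p = 0.000617). CEP19, a centrosome protein, rose by 0.91 (adjusted p = 0.00298), and CDK2AP1, an inhibitor of CDK2, by 0.66 (0.0016). CCDC74A had the largest rise of the genes with at least 300 bases of exon (0.93, adjusted p = 0.00181), and its paralog CCDC74B was called at 0.69 (0.0405, lost without MM.1s at 0.176, RPMI8226 at 0.104 and RPMI8226-Mcl1 at 0.137), with reads of the pair possibly split between them. RELB, a subunit of the non-canonical NF-kB pathway, rose by 0.68 (adjusted p = 0.0131, lost without KMS18 at 0.0743). It was the 1 of 26 tested NF-kB genes that passed (3.85% higher, against 2.93% of all genes). CLEC7A, the beta-glucan receptor dectin-1, was called at 0.86 (adjusted p = 0.0256), of which KMS18 gave 1.95, and without KMS18 the change was 0.50 with the call kept, while it was lost without MM.1s (0.0657) or RPMI8226-Mcl1 (0.0755).

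Of 11 tested pro-apoptotic relatives of BCL2 2 rose and 0 fell (18.2% higher, against 2.93% of all genes), with a median of 0.09. Of 4 tested pro-survival members 1 fell and 0 rose (25% lower, against 4.66%). BCL2L11, which encodes the BH3-only protein BIM, measured 53.6 FPKM under CD86 shRNA in MM.1s (42.4 and 40.3), 34.0 in RPMI8226 (27.4 and 28), 12.6 in KMS18 (6.62 and 8.09) and 40.5 in RPMI8226-Mcl1 (33.3 and 33.1). The CD86 shRNA library was the highest in each background, with a log2 change of 0.41 (SE 0.0771, adjusted p = 0.0098, limma). BAD, another BH3-only gene, was called at 0.27 (adjusted p = 0.0325), and the call was lost whichever background was left out, with adjusted p-values up to 0.112. BCL2 itself, the pro-survival member, fell by 0.48 (adjusted p = 0.00293) to 70.4% ± 8.66 of its controls. MCL1 did not pass (0.26, adjusted p = 0.0712), with RPMI8226 at -0.09 and the others between 0.23 and 0.50. It passed without RPMI8226 (0.38, adjusted p = 0.0206). Both fits include RPMI8226-Mcl1 (0.42), where reads of the native and the overexpressed gene cannot be told apart. MYC did not pass (-0.11, adjusted p = 0.261). Of 24 tested p53 targets 3 rose (12.5%, against 2.93% of all genes) and 1 fell (4.17%, against 4.66%). Besides ZMAT3 the death receptor FAS rose (0.52, adjusted p = 0.0115, lost without KMS18 at 0.0793 and RPMI8226-Mcl1 at 0.0822). The exonuclease gene AEN was called higher (adjusted p = 0.0374) and MDM2, which encodes the ubiquitin ligase of p53, lower (0.0366). The call of AEN was lost without MM.1s (0.122), RPMI8226 (0.143) or RPMI8226-Mcl1 (0.137), and that of MDM2 whichever background was left out, with adjusted p-values up to 0.148.

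In several lists few or no genes were called, where 4.66% of all genes were called lower and 2.93% higher. Among 30 genes of MYC and ribosome production, 21 of glycolysis without GAPDH and 8 of HLA class II presentation limma called 0. Of 54 cytosolic ribosomal proteins 1 was called, RPS13, which fell by 0.36 (adjusted p = 0.000463), while the median of the list was 0.08. Of 28 proteasome genes 2 were called higher (7.14%, against 2.93% of all genes), with a median of 0.03. The calls were 1 of 27 (higher) in mitosis, 2 lower and 1 higher of 28 in G1/S and DNA replication, 1 lower and 1 higher of 23 in PI3K and AKT signalling, and 1 of 15 (lower) in interferon response. In the machinery of microRNAs and RNA interference 2 of 16 rose (12.5%, against 2.93% of all genes) and 1 fell. DICER1, the nuclease that cuts hairpin precursors, rose to 145% ± 11.7 of its controls (log2 change 0.46, adjusted p = 0.00557, limma, lost without RPMI8226-Mcl1 at 0.0567). AGO4 (0.48) and AGO1 (-0.41) were called in opposite directions, and both calls were lost whichever background was left out, with adjusted p-values up to 0.171 and 0.104.

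**Figure D4:**
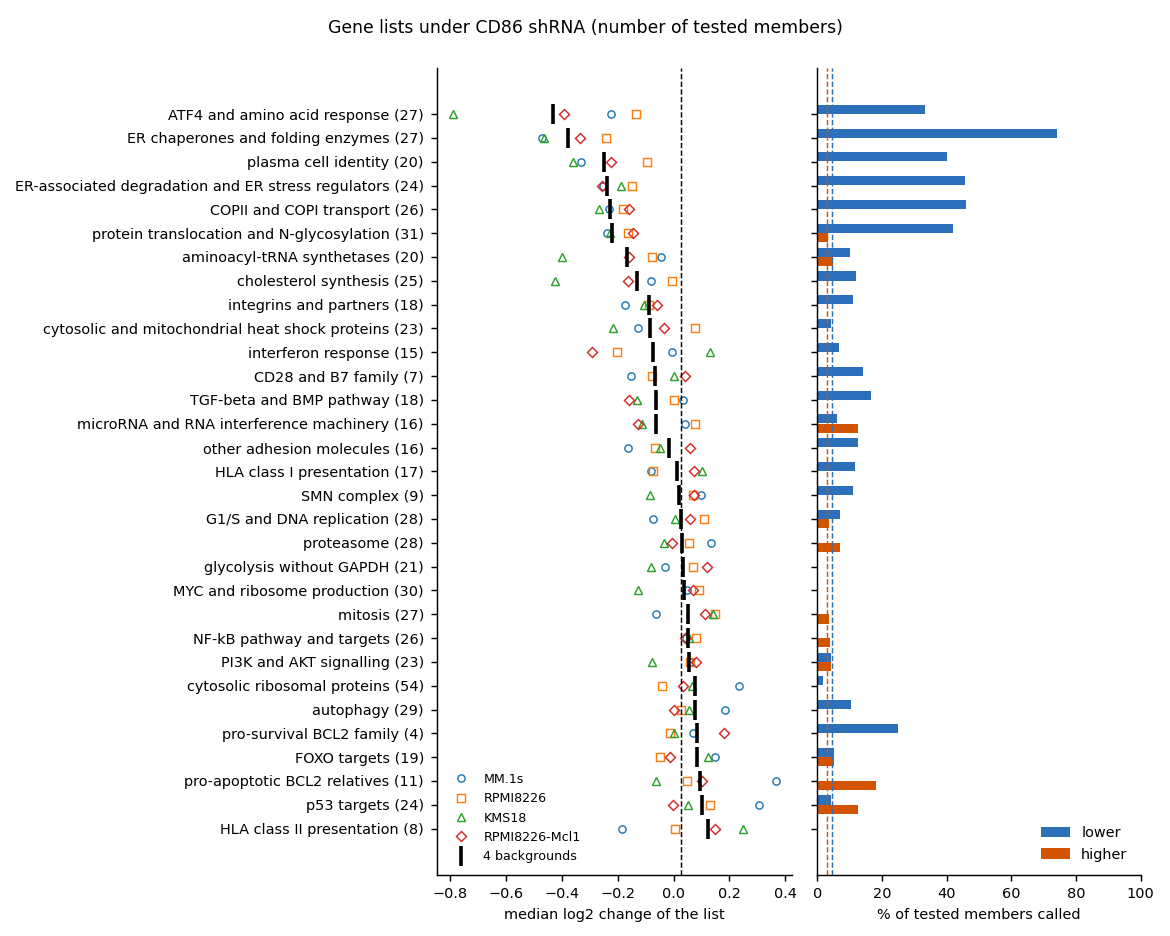
For each list with at least 4 tested genes the left panel gives the median log2 change in each background (symbols) and over the 4 backgrounds (black tick), and the right panel the percent of tested members that fell (blue) or rose (orange) with an adjusted p under 0.05. Dashed lines are the values of all genes tested (median 0.03, 4.66% lower and 2.93% higher), and in the top 6 lists 33.3% to 74.1% of the members fell.

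Many of the genes that fell, though not all, held one of a pair of short sequences in their 3′ UTRs. The longest 3′ UTR of each gene was taken from GENCODE 29 (GRCh38) for 10480 of the 11312 genes (92.6%), and all 11150 heptamers present in at least 500 of them were ranked by the mean log2 change of the genes that held them minus that of the genes that did not. TCAAGCA, in 1425 genes, ranked lowest (difference -0.09) and TTCAAGC, in 1573 genes, ranked second lowest (-0.09), and they overlap in the octamer TTCAAGCA. The same heptamers held the lowest and second lowest rank in each of the 4 backgrounds taken alone. The change used to pick them is the mean over those backgrounds. For Gapdh shRNA against Vec they ranked 1287 and 5150 from the lowest, and for CD28 shRNA against the same controls 2861 and 4344. The heptamers were picked from these changes, so that these ranks and the values that follow are descriptions with no test.

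Of 674 genes with the octamer 110 fell (16.3%), of 1487 with a heptamer but not the octamer 127 fell (8.54%), and of 8319 with neither 278 fell (3.34%). The shares that rose were 1.93%, 1.95% and 3.43%. A heptamer was held by 46.0% of the genes that fell, 12.8% of those that rose and 20.6% of all genes with a 3′ UTR. The median log2 change was -0.04 with the octamer, -0.01 with a heptamer only and 0.04 with neither. Holders had longer 3′ UTRs (median 3250 bases against 1032), and in each of 4 equal classes of 3′ UTR length the share that fell was higher with a heptamer than without. It was 29.7% against 4.71% in the class of 20 to 558 bases and 7.05% against 1.73% in the class of 2664 to 32870 bases. Among the genes that fell, CCDC167, SDC1, TGFBR2, DUSP5, DNAJC9, SLC39A6, WFS1, SLC7A5, MAP1LC3B, SSR1, DNAJC3, MSMO1, BCL2, CEBPB, ALCAM and MDM2 held the octamer. ITGB1, GEMIN2, RRN3, SH2D3C, TMEM38A, SERINC1, SVIP, IRF4, GABARAP, RPS13, CD44 and AGO1 held a heptamer without it. The rising genes CLEC7A and AGO4 held the octamer as well, and so did CD28, which did not pass. CHAC1 and KLF2, among the larger falls, held neither heptamer. The sites below, 24 bases each on the sense strand with the match in capitals, are from genes described above.
CCDC167 (chr6:37483058-37483081, minus strand): ctcccaacctagtgTTCAAGCAtg
SDC1 (chr2:20201917-20201940, minus strand): gggccgccgcctctTTCAAGCAgt
TGFBR2 (chr3:30693015-30693038, plus strand): gtaagaaatgtccaTTCAAGCAgt
SLC7A5 (chr16:87830385-87830408, minus strand): gggcttcaggtgttTTCAAGCAca
ITGB1 (chr10:32900882-32900905, minus strand): cttcactttacaaaTTCAAGCctt
GEMIN2 (chr14:39136701-39136724, plus strand): acagttttctgtaaTCAAGCAgct
IRF4 (chr6:410282-410305, plus strand): tatttaggaaaaccTCAAGCAgta

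CD86 itself held neither heptamer in its 3′ UTR and TTCAAGC once in its coding sequence, shown here because CD86 is the target of the hairpin. No source used here says where the hairpin pairs with CD86, and the part of the shared letters in the falls was not tested.
CD86 (chr3:122103516-122103539, plus strand): tgctcctctgaagaTTCAAGCtta

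**Figure D5:**
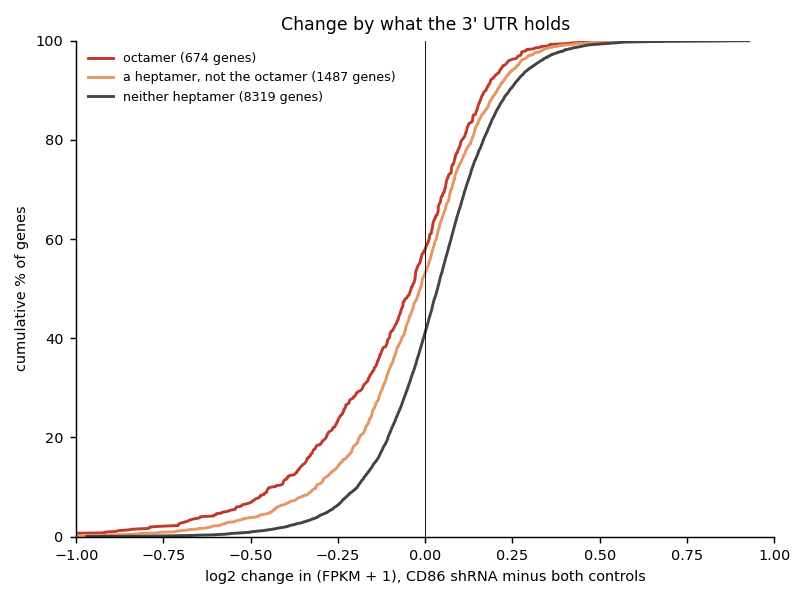
Cumulative percent of genes is plotted against the log2 change in (FPKM + 1) under CD86 shRNA for genes whose 3′ UTR holds the octamer (674), a heptamer but not the octamer (1487) or neither heptamer (8319). The curve of the octamer lies to the left of the others and that of neither heptamer to the right, with medians of -0.04, -0.01 and 0.04.

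The lists were therefore also counted without holders of a heptamer. Among ER chaperones and folding enzymes 18 of the 22 genes with a 3′ UTR that held neither heptamer fell, with a median of -0.38, and HSPA5, HSP90B1, CALR, TXNDC5, MANF and MYDGF were among them. In translocation and N-glycosylation 12 of 27 non-holders fell, in vesicle coats 8 of 19, in the ATF4 and amino acid response 6 of 18 and in plasma cell identity 6 of 17. Among regulators of ER stress and ER-associated degradation 5 of 16 non-holders and 6 of 8 holders fell, and ATF6, ERN1 and WFS1 were holders of the octamer. Over all genes with a 3′ UTR and neither heptamer, the share that fell was 3.34%. ITGB7, TNFRSF17, MZB1, FKBP11, KLF2, CHAC1, PHGDH, TGFB1, SREBF1 and, among the rises, BCL2L11, ZMAT3 and CD70 held neither heptamer.

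Whether the response differed between backgrounds was tested as an interaction. Limma called 4 of 11312 genes (0.0354%) with 4 residual degrees of freedom, and 1176 had an unadjusted p under 0.05. All 4, MIR3911, MIR647, P2RX6P and MIR635, were entries of 96 to 124 bases with at most 6 reads in any library. No gene described above passed this test, so that differences between backgrounds in single genes, such as IRF4 in RPMI8226, are values without a call.

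In the authors' deposited table, which compares CD86 shRNA with Vec and whose name marks the Gapdh shRNA and Mcl1 libraries as excluded, CD86 had a log2 fold change of -0.85 and a false discovery rate of 0.116. The authors' deposited table gave SDC1 -1.13, CCDC167 -1.72, TGFBR2 -1.40 and ITGB1 -0.78. In the authors' deposited table IRF4 stood at -0.47 (false discovery rate 0.0308), ITGB7 at -0.50 (0.0860), HSPA5 at -0.42 (0.0311), BCL2L11 at 0.49 (0.0344) and ZMAT3 at 1.03. Each of these had the same sign as in the fit against both controls. The deposited comparison draws on libraries also used here, and each gene listed was called here, so the shared sign is no independent check.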

How the data were processed

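The authors deposited 1 table with FPKM values for 23459 gene entries in each library and the exon length of each gene, per the file headers. That table also holds, as deposited by the authors, a log2 fold change, a p-value and a false discovery rate per gene for CD86 shRNA against Vec. Tools named in the submitters' processing notes, with no role, are edgeR 3.12.1, R 3.2.2, Picard and TopHat2 2.0.13. Reads and library totals were recovered by multiplying FPKM by exon length: 100% of the products were whole reads within 0.02 of a read. All 12 totals were even, so mates may have been counted separately, and overlapping or antisense genes cannot be told apart because no source used here names a strand setting.

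Changes were fitted with limma 3.58.1 (R 4.3.3, moderated variance with an intensity trend) to log2(FPKM + 1) in the 11312 genes whose mean reached 1 FPKM, GAPDH left out, with terms for background and CD86 shRNA (7 residual degrees of freedom). A further fit gave each control a term of its own (6 residual degrees of freedom). Tests were two-sided with Benjamini-Hochberg adjustment over all genes and a threshold of 0.05. The log2(FPKM + 1) scale understates the change of low genes. Percent of control is the FPKM under CD86 shRNA over the mean FPKM of both controls. The background pairs the libraries: deviations within a background were correlated in all 12 pairs (r 0.896 to 0.953 across genes), against at most 0.692 between backgrounds, reached by RPMI8226 with its Mcl1 derivative. The statistics were tested on data simulated with the same effects in every background and no difference between the controls. That setting lacks the spread between backgrounds that the p-values measure. Alternatives changed the pseudocount, the filter, the scaling, the block and the libraries included.

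The members, the gene lists and the naming rule were chosen with earlier results of these data known. The rule names CD86, CD28, CD80, CTLA4, GAPDH, ITGB1, ITGB7, IRF4, PRDM1, XBP1, MYC, MCL1 and BCL2L11, up to 16 falls and 12 rises that were largest among called genes of at least 300 exon bases with 1 direction against each control in every background, up to 4 called members per list, and the 3 smallest adjusted p-values by background. Genes outside the rule, including JCHAIN, DNAJB9, FKBP2, MAP1LC3B2, CCDC74B, SRP9, HSP90B1, CALR and MIR635, were chosen after their values were seen. The 7 marker lists were used for checks: beside those in the report, the NK list reached 23.6 FPKM (NCAM1), mature B cells 46.3 (CR2) and erythroid cells 28.6 (HBA1) for its highest gene in any library.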

Additional observations from a re-analysis of the deposited data

Results flagged for a closer look

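In 93 named genes the 4 backgrounds' changes were examined for a background that stood apart from the other three (its gap to the nearest of them, over the range, above Dixon's critical value), and 4 were found, where chance gives about 1 in 20. PLD4, a lysosomal nuclease of lymphoid and myeloid cells, changed by -1.95 on the log2 scale in KMS18 and by -0.59 to -0.47 elsewhere. DUSP5 changed by -0.92 in RPMI8226-Mcl1 and by -1.14 to -1.11 elsewhere. GEMIN2 changed by -0.69 in RPMI8226-Mcl1 and by -1.11 to -1.06 elsewhere. HSPB1, a small heat shock protein, changed by -0.055 in KMS18 and by -0.38 to -0.33 elsewhere.

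Of all genes, 4 passed the interaction test in limma for a response that differs between backgrounds, each from an entry with 0 to 6 reads per library. MIR3911 had an adjusted p of 0.0188, with changes of 1.88 in MM.1s and -2.12 in RPMI8226. MIR647 had an adjusted p of 0.0294, with -3.50 in MM.1s and -0.13 in KMS18. P2RX6P had an adjusted p of 0.0294, with 1.29 in MM.1s and -1.98 in RPMI8226. MIR635 had an adjusted p of 0.0294, with -2.36 in KMS18 and 2.74 in RPMI8226-Mcl1.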

How the results depend on the processing

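Against both controls the number of calls, 858, became 493 with no filter on low values, 1554 with voom on recovered reads, 369 with RPMI8226 and RPMI8226-Mcl1 averaged (chosen after seeing the data) and 2 with no replicate block, when 272 genes had an unadjusted p under 0.05. With a single background or control library left out it ranged from 266 to 707. Against Vec the 328 calls became 167 with no filter and 0 with no replicate block (147 unadjusted), and 59 to 157 without 1 background. Against Gapdh shRNA the 574 calls became 317 with no filter and 0 with no replicate block (195 unadjusted), and 84 to 412 without 1 background. By background the 4 calls became 11 with a pseudocount of 0.1, 475 with no filter and 0 at a mean of at least 5 FPKM (866 unadjusted), and 0 to 8 without 1 background (981 and 943 unadjusted in limma where it was 0). The change of CD86 was -0.67 against Vec alone, -0.80 with no replicate block (not called) and -0.97 to -0.66 without 1 background. The cause of these differences was not tested. The direction reversed for MIR3911 without RPMI8226 (range without 1 background -0.89 to 0.44) and with the RPMI8226 pair averaged (0.18), for P2RX6P with that average (0.10) and for CD28 without MM.1s (range -0.11 to 0.0088). Of 88 named genes other than CD86 that were called, 47 kept their call without any 1 background or control library. The call was kept by 87 with voom, 86 with median of ratios scaling, 80 with a pseudocount of 0.1 and 71 against Gapdh shRNA alone. It was kept by 66 with no filter, 65 with the RPMI8226 pair averaged, 58 against Vec alone and 2 with no replicate block. None of the 88 reversed in any alternative run. Over genes with neither heptamer (chosen after seeing the data) 290 fell and 293 rose. The planned edgeR test was not run, and voom was the test run on the recovered reads. With 18 to 145 reads, depth limits CD86 itself, and entries with under 10 reads are not interpretable singly.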
